A study of Homo sapiens with 16 samples.

Results

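The regions described here are the 300 bins of 100000 bp with the most H3K9me3 peaks in shARID1A cells. Chromosomes 1 to 22 were divided into such bins, the peaks of the shARID1A H3K9me3 library called against input were counted by midpoint, and the 300 bins with the highest counts were taken. They are 300 of 27574 occupied bins, that is, bins holding at least 1 peak midpoint in any of the 20 peak lists used, or 1.09% of them. Because those H3K9me3 counts chose the bins, they are given only as a description.

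Chromatin immunoprecipitation with sequencing (ChIP-seq) in the human colon cancer line HCT116 was used to examine how ARID1A relates to heterochromatin. The cells are shARID1A cells (an shRNA against ARID1A), shCtrl cells (control shRNA; their titles carry CTR, which was read as shCtrl) and HCT116 cells with no shRNA named in the label, called unmodified here. H3K9me3, TRIM28 and SETDB1 were precipitated in shARID1A cells, the same 3 and ARID1A in shCtrl cells, and H3K9me3, TRIM28 and ARID1A in unmodified cells. Each combination has 1 library, called once against input and once against IgG, so differences between the states cannot be checked against replicate spread and none was tested. The labels do not say which shRNA was used or whether a line was 1 clone, and no ARID1A precipitation from shARID1A cells was analysed here, so the depletion was not measured.

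H3K9me3 is the histone mark of constitutive heterochromatin, found on satellite repeats around centromeres and over clusters of KRAB zinc finger genes. KRAB zinc finger proteins bind DNA and bring in TRIM28, a corepressor, which recruits SETDB1, a methyltransferase that places H3K9me3. ARID1A is the DNA-binding subunit of the SWI/SNF chromatin remodeller. Ribosomal, transfer and small nuclear RNA genes lie in arrays of near-identical copies, as do several families of protein-coding genes, and short reads cannot be assigned among such copies with certainty.

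Some labels and lists stand apart and bear on every value below. The product named for the H3K9me3 and TRIM28 antibodies differs between the protocol and the sample characteristics. Of the 56244 shARID1A H3K9me3 peaks on the autosomes, 28.1% overlapped a peak of the library labelled shCtrl SETDB1, against 5.93% for the library labelled shCtrl H3K9me3 and 1.08% for unmodified H3K9me3. Input lists held 11367 autosomal peaks in unmodified H3K9me3 and 200920 in shARID1A TRIM28, the shortest and the longest. Strong peaks, those with a q of at most 0.05, numbered 12008 in shARID1A H3K9me3, 2103 in shARID1A TRIM28 and 1356 in shARID1A SETDB1, but 25 in shCtrl TRIM28 and 15 in unmodified H3K9me3. Lists of 1 cell state share an input library, so the values against IgG are given beside those against input. The number of sequenced fragments behind the lists was not given, and all intervals below are exact Clopper-Pearson 95% intervals that cover counting error only.

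Promoters in the bins give the sequences that can be shown. Of 33725 promoters of RefSeq genes on the autosomes (GRCh38.p14, 250 bases before to 50 after the start), 352 lie in the bins. Those of RHOU, NEK2, EIF5A2 and ZNF670 carried a peak of all 3 shARID1A libraries against input, and that of ZNF124, in a bin with many TRIM28 peaks, carried only the H3K9me3 peak against input. Of the input lists of other cells, shCtrl ARID1A had a peak at the EIF5A2 promoter and shCtrl SETDB1 one at the ZNF670 promoter. RHOU is a small GTPase, NEK2 a mitotic kinase, EIF5A2 a translation factor, and ZNF670 and ZNF124 are zinc finger proteins. The 250 bases before each start are printed on the gene's strand, with CpG dinucleotides in capitals.
RHOU, chr1:228644397-228644646, plus strand: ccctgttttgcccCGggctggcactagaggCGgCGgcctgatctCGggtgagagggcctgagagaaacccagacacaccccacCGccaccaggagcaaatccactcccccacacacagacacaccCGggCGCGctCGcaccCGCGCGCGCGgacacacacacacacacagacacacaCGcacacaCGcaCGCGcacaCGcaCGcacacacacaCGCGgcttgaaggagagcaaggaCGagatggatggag
NEK2, chr1:211675622-211675871, minus strand: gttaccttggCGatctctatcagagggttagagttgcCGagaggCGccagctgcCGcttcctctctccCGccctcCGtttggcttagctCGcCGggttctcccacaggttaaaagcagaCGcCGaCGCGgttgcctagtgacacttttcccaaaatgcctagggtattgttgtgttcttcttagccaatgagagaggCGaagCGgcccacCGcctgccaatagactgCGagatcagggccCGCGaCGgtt
EIF5A2, chr3:170908638-170908887, minus strand: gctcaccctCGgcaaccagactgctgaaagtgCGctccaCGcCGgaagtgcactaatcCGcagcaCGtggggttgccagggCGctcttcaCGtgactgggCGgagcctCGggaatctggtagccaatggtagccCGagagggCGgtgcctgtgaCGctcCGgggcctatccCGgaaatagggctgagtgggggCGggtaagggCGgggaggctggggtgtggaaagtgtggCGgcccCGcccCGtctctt
ZNF670, chr1:247078812-247079061, minus strand: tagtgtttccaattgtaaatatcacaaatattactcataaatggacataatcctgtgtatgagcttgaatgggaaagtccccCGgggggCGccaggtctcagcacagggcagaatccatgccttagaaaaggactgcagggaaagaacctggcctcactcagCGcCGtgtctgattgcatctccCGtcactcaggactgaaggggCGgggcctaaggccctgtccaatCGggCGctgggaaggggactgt
ZNF124, chr1:247172021-247172270, minus strand: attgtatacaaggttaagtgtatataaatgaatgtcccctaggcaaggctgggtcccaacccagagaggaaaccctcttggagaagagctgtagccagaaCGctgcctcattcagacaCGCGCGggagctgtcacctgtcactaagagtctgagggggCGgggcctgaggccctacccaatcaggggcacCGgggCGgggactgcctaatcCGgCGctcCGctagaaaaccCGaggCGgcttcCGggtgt
RHOU has 23 CpG in these 250 bases, EIF5A2 20, NEK2 19, ZNF124 13 and ZNF670 8, against a median of 11 over all promoters. ZNF670, with the fewest CpG of the 5, carried the tallest of their H3K9me3 peaks, with a fold enrichment of 13.0 over local background, at 247078552 to 247079290. RHOU had 4.11, EIF5A2 4.81, NEK2 2.66 and ZNF124 1.93, and the last 2 were not strong (q above 0.05). At the ZNF670 promoter the shARID1A TRIM28 and SETDB1 peaks had folds of 3.02 and 4.14, and the shCtrl SETDB1 peak 9.01. At RHOU TRIM28 had 7.32 and SETDB1 2.27. All 5 promoters, picked for their peaks, carried a shCtrl ARID1A peak against IgG, as did 28.4% of all promoters, and ZNF124 also carried shARID1A TRIM28 and SETDB1 peaks. The GC box GGGCGG, on either strand, is in the printed bases of NEK2, EIF5A2, ZNF670 and ZNF124 and not in those of RHOU, and 42.7% of all promoters hold it.

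By construction the bins are dense in shARID1A H3K9me3: they hold 3071 of the 56244 autosomal peaks, with 8 to 36 peaks a bin and a median of 9, against a median of 2 over all occupied bins. The limit fell within a tie. All 223 bins with more than 8 peaks are members, but of the 213 bins with exactly 8 only 77 are, all on chromosomes 1 to 4, because ties were taken in chromosome order. The last bins inside the limit are on chromosome 4 and include those of the alcohol dehydrogenase genes ADH1B and ADH1C and of SMAD1, a signal transducer of bone morphogenetic proteins. The first bins left out, with the same 8 peaks, include 2 within the ubiquitin ligase gene MARCHF1, also on chromosome 4. The 51 members on chromosome 1, 45 on 2, 30 on 3 and 38 on 4 are partly set by this order. Above the tie, chromosome 8 gave 27 bins, chromosome 4 gave 25, chromosomes 1, 2 and 6 gave 24 each, and chromosomes 13, 15, 20 and 22 gave none.

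Most members stand alone. There are 257 single bins, 12 pairs, 2 runs of 3 and 1 run of 13 adjacent bins. The long run is chromosome 6 from 58500001 to 59800000, where the assembly carries its model of the alpha satellite at the centromere. A run of 3 on chromosome 1, from 246900001 to 247200000, covers the zinc finger genes ZNF695, ZNF670, ZNF669 and ZNF124. The other run of 3 is on chromosome 8, from 85600001 to 85900000, and its middle bin, with LOC101929601 and LOC101929627, ranks second of all. The choosing peaks inside members were as tall as elsewhere, with a median fold of 3.15 in both, and 27.8% of them were strong (26.2% to 29.4%), against 21.0% in other bins.

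**Figure D1:**
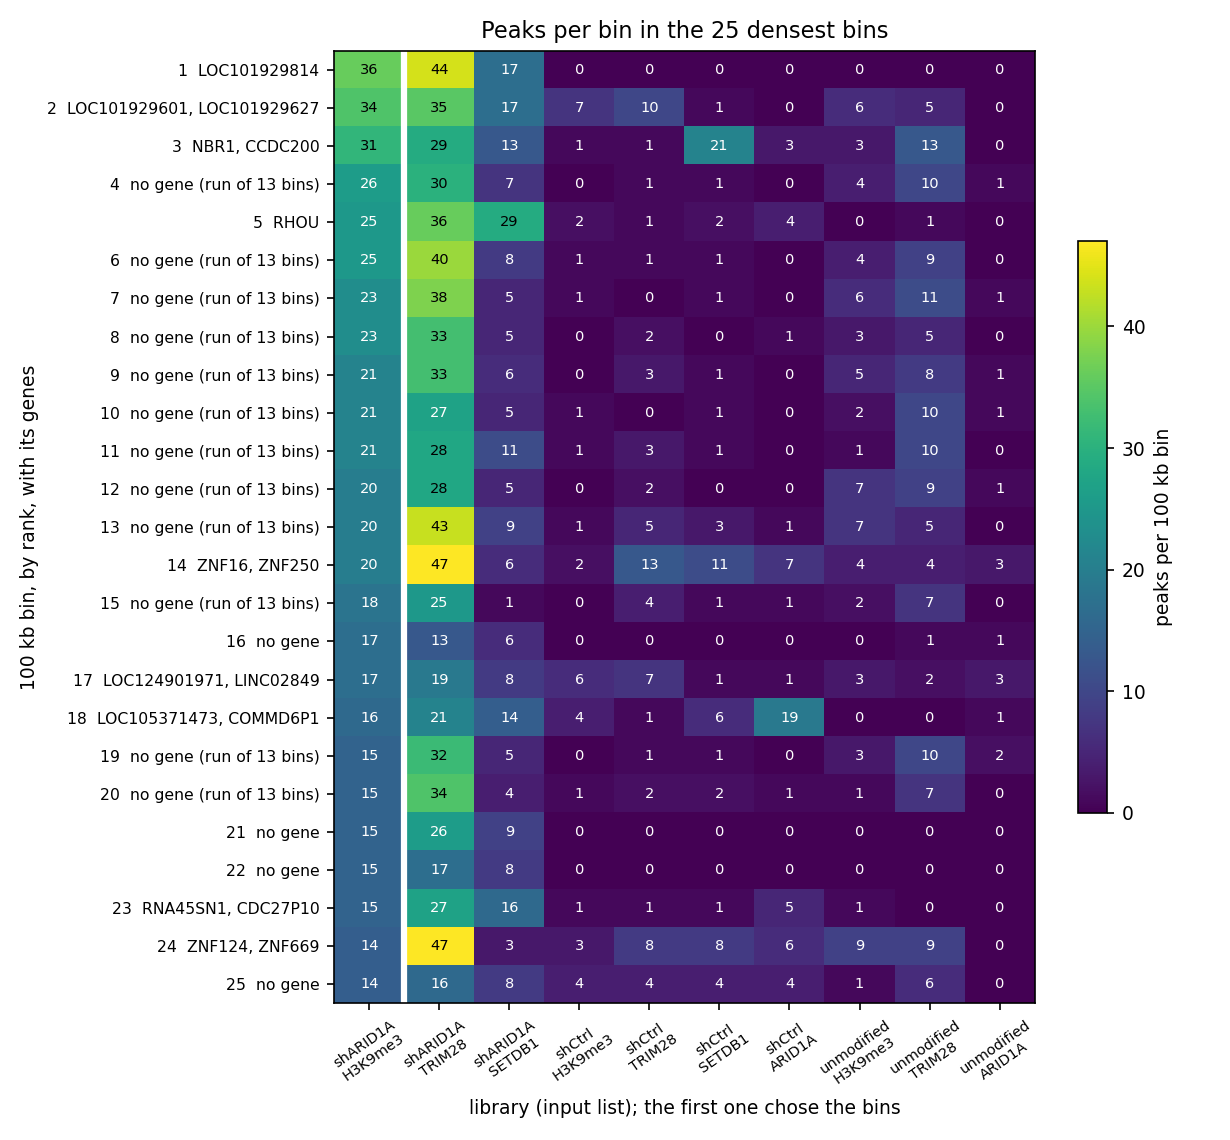
Peaks per 100 kb bin in the 25 densest bins (rows, by rank, named by up to 2 genes) for 10 libraries called against input (columns; the first chose the bins). The bin at rank 1 holds 36, 44 and 17 peaks of the shARID1A libraries and 0 of the other 7, while the bins of the 13-bin run also hold unmodified TRIM28 peaks.

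All 9 other libraries had more peaks in these bins than in the average occupied bin. Relative density, the mean number of peaks per member bin over the mean per occupied bin, was 2.17 (2.11 to 2.23) for shARID1A TRIM28 and 2.30 (2.16 to 2.44) for shARID1A SETDB1. It was 1.42 (1.35 to 1.49) for shCtrl H3K9me3, 1.83 for shCtrl TRIM28, 2.05 for shCtrl SETDB1 and 1.31 for shCtrl ARID1A. In unmodified cells it was 2.98 (2.69 to 3.30) for H3K9me3, 2.44 for TRIM28 and 1.75 for ARID1A. Among H3K9me3 libraries that did not choose the bins, unmodified cells thus had the higher relative density, although the median member held only 1 of its peaks, against 0 for all bins. The corresponding medians were 14 against 7 peaks for shARID1A TRIM28, 2 against 1 for shARID1A SETDB1 and 4 against 2 for shCtrl H3K9me3.

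Against IgG the order changed. The values were 1.59 for shARID1A TRIM28, 1.18 for shARID1A SETDB1, 1.19 for shCtrl H3K9me3, 1.42 for shCtrl TRIM28, 1.92 for shCtrl SETDB1 and 1.22 for shCtrl ARID1A. Unmodified H3K9me3 had 3.08, unmodified TRIM28 2.07 and unmodified ARID1A 1.60. All 9 stayed above 1, but the shARID1A SETDB1 excess over the average bin was small once IgG was the control. The choosing library itself had 1.87 against IgG, and only 34 of the 300 bins would have been chosen from that list.

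**Figure D2:**
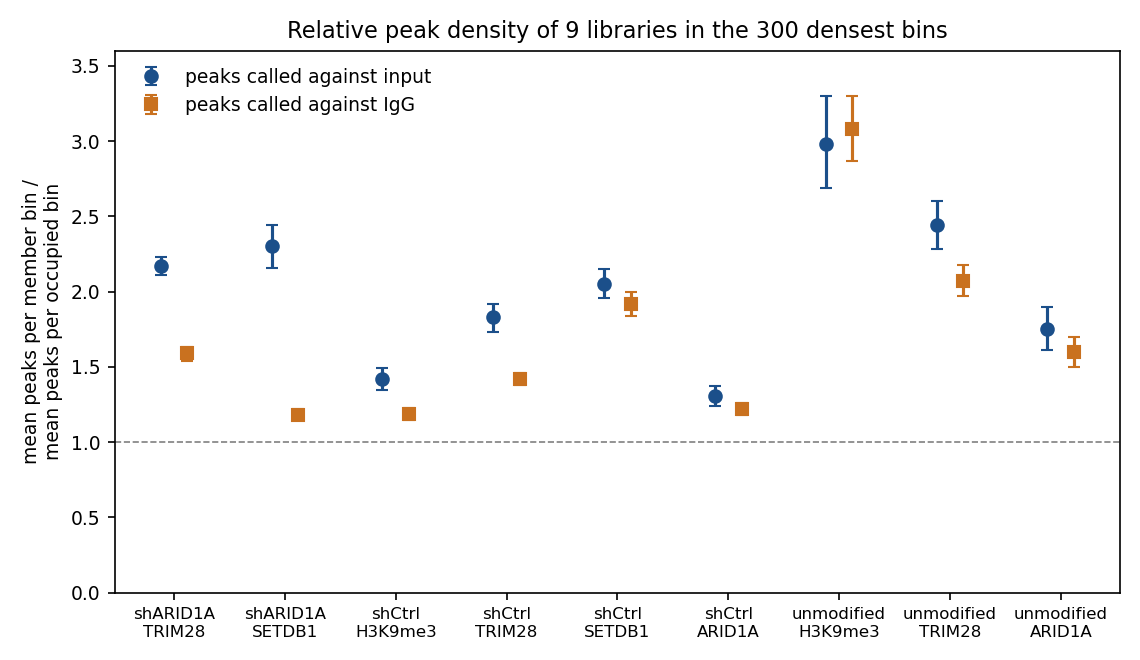
Relative peak density (y axis, mean peaks per member bin divided by mean peaks per occupied bin; dashed line at 1) of the 9 libraries that did not choose the bins. Circles are lists against input and squares lists against IgG, with 95% counting intervals; all 18 values are above 1 and unmodified H3K9me3 is the highest with either control.

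Presence in a bin gave a similar picture. A shARID1A TRIM28 peak lay in all 300 members, against 97.7% of occupied bins, and a shARID1A SETDB1 peak in 276 (92.0%), against 64.6%. shCtrl H3K9me3 had a peak in 265 members (88.3%), against 73.4% of occupied bins, and unmodified H3K9me3 in 159 (53.0%), against 26.3%. Few members were among the 300 densest bins of another library, where 1.09% of occupied bins stand by definition. The number was 68 (22.7%) for shARID1A TRIM28, 38 (12.7%) for shARID1A SETDB1, 4 (1.33%) for shCtrl H3K9me3, 15 for shCtrl TRIM28, 12 for shCtrl SETDB1 and 3 for shCtrl ARID1A. In unmodified cells it was 24 for H3K9me3, 26 for TRIM28 and 9 for ARID1A. The densest bins of the 2 shRNA H3K9me3 libraries were therefore mostly different bins, with a share for shCtrl close to the background of 1.09%.

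Strong peaks of TRIM28 and SETDB1 in shARID1A cells were gathered in few of the bins. TRIM28 had a strong peak in 84 members (28.0%), against 5.95% of occupied bins, and SETDB1 in 70 (23.3%), against 4.16%. Of the 295 strong TRIM28 peaks in members, 40 lay in the top-ranked bin on chromosome 1 from 143200001 to 143300000, 20 in the bin of the 5S ribosomal RNA genes, and 17 in a bin without genes on chromosome 16 from 34500001. Of the 137 strong SETDB1 peaks, 15 lay in the 5S bin and 13 in the top-ranked bin. The 300 bins hold 14.0% of all strong autosomal TRIM28 peaks of these cells (12.6% to 15.6%) and 10.1% of the strong SETDB1 peaks (8.55% to 11.8%), against 2.36% and 2.50% of all their peaks. In shCtrl cells the shares of strong peaks were 1.45% for H3K9me3 and 2.51% for SETDB1. They were 3 of 25 for TRIM28 (2.55% to 31.2%) and 5 of 42 for ARID1A (11.9%, 3.98% to 25.6%). All 5 of these ARID1A peaks lay in 1 bin, on chromosome 1 from 161400001. In unmodified cells the shares were 3 of 15 for H3K9me3 (20.0%, 4.33% to 48.1%), 12 of 67 for TRIM28 (17.9%, 9.61% to 29.2%) and 1.44% for ARID1A. High shares were thus found outside shARID1A cells too, but on few peaks.

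Over the bins, relative TRIM28 counts differed by little between shARID1A and shCtrl cells, while the SETDB1 difference changed in size and sign with the control. On the log2 scale, the relative density of TRIM28 in shARID1A over shCtrl cells was 0.25 higher against input and 0.16 higher against IgG. Per bin, with 0.5 peaks added, the median log2 ratio was 0.17 in members and 0.07 in all occupied bins. At least a 2-fold higher value in shARID1A cells was reached in 85 members (28.3%), against 26.5% of all bins, and at least a 2-fold lower one in 38 (12.7%), against 19.1%. The share of higher bins was thus near the background. Against IgG 38 members (12.7%) were higher, against 10.1%, and 36 lower (against 16.6%). For SETDB1 the log2 ratio of relative densities was 0.16 against input but -0.70 against IgG, and it was -0.16 without the 30 densest bins. The median SETDB1 ratio per bin was 0.16 in members, against 1.01 in all bins, where low counts and the added 0.5 set much of the value. Higher SETDB1 was found in 99 members (33.0%), against 52.0% of all bins, and lower SETDB1 in 64 (21.3%), against 16.2%. Against IgG the median was -0.62 in members and 0.12 in all bins, with 10 members higher (3.33%), against 24.2% of all bins, and 97 lower (32.3%), against 16.8%. The sign of the SETDB1 ratio in members did not hold across both controls. With either control, members were less often higher and more often lower than all bins. Against input, however, a bin with equal SETDB1 counts in both lists, or with none in either, scores 1.01 and counts as higher. The 52.0% of all bins thus includes empty bins, and the contrast against input cannot be read as a SETDB1 difference. The H3K9me3 ratio, which the choice of bins sets, was at least 2-fold higher in 237 members (79.0%), against 26.5% of all bins, and 2-fold lower in 0, against 16.5%.

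Peaks of the choosing library inside members met TRIM28 and SETDB1 peaks of the same cells more often than those elsewhere did. Of the 3071 H3K9me3 peaks in members, 1034 overlapped a shARID1A TRIM28 peak by at least 1 bp (33.7%, 32.0% to 35.4%), against 18.3% of those in other bins and 19.1% of all. For shARID1A SETDB1 the count was 400 (13.0%, 11.9% to 14.3%), against 7.47% in other bins and 7.78% of all. With IgG lists TRIM28 gave 21.3%, against 15.4% in other bins and 15.7% of all, and SETDB1 gave 15.9%, against 16.1% in both, so the SETDB1 difference was present against input only. The share met by shCtrl H3K9me3 was 5.54% in members and 5.96% in other bins, within its counting interval. For shCtrl SETDB1 it was 25.9% in members, against 28.2%. For unmodified TRIM28 it was 5.83%, against 2.35% in other bins and 2.54% of all, and for unmodified H3K9me3 2.25%, against 1.01% and 1.08%. A bin dense in peaks of both libraries has more overlaps for that reason alone, and the part of this in these shares was not tested.

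**Figure D3:**
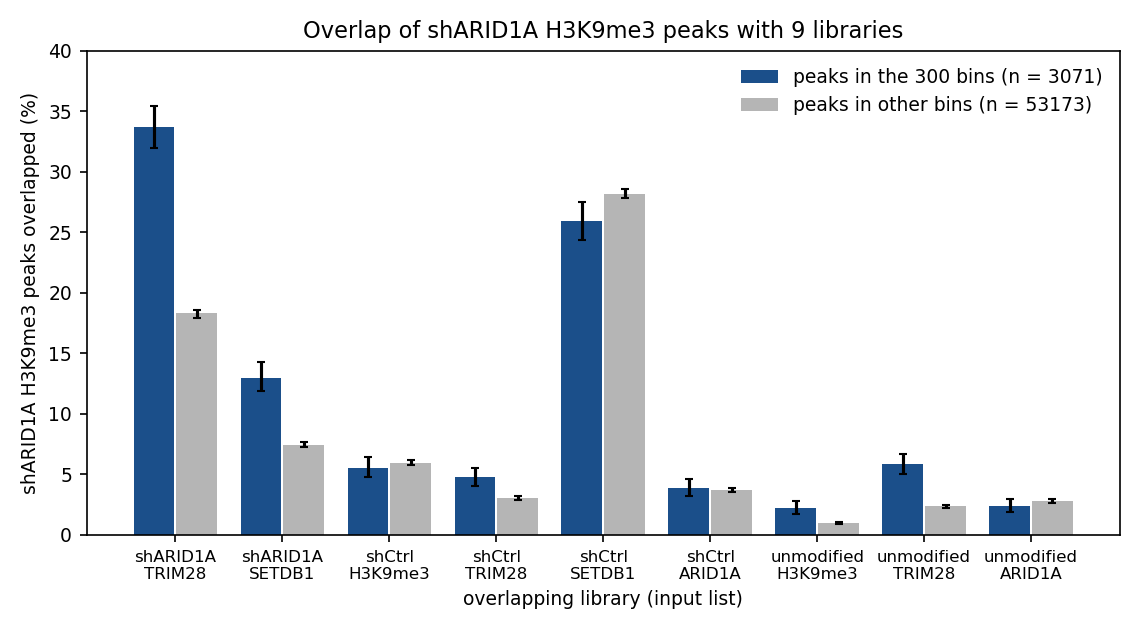
Share of shARID1A H3K9me3 peaks (y axis, percent) that overlap a peak of each of 9 libraries called against input, for peaks in the 300 bins (left bar of each pair) and in other bins (right bar), with 95% counting intervals. The largest difference is for shARID1A TRIM28, with 33.7% in the 300 bins and 18.3% in other bins.

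The bins fall into kinds by the genes that touch them. An RNA gene array, meaning at least 5 tRNA, rRNA or snRNA genes, was in 9 of the 300 members, against 31 of all occupied bins (0.112%). A zinc finger gene, with no such array, was in 17 (5.67%), against 1.84%, and no gene at all in 49 (16.3%), against 11.5%. Other protein-coding genes were in 161 (53.7%), against 62.2%, and only noncoding genes or pseudogenes in 64 (21.3%), against 24.3%. Protein-coding genes as a whole were as frequent as elsewhere, with 342 of 19126 touching a member and a relative density of 1.02. By family, 26 of 553 zinc finger genes touched a member, 10 of 391 olfactory receptor genes, 68 of 439 tRNA genes, 23 of 49 rRNA genes, 14 of 151 snRNA genes and 19 of 25 USP17L genes. Those counts correspond to relative densities of 3.48, 2.47, 14.2, 45.0, 8.69 and 69.9. These densities count genes, and copies in an array share bins. In the same order, the genes touched 18, 6, 8, 2, 2 and 2 members. Counted by bins, tRNA genes were in 2.67% of members, against 0.577% of occupied bins, and snRNA genes in 0.667%, against 0.403%. The rRNA genes and the USP17L genes were each in 0.667%, against 0.0181%. No protocadherin, replication-dependent histone, keratin, UGT, NBPF, GOLGA, defensin, immunoglobulin or T cell receptor, HLA or HOX gene touched a member. snoRNA genes (11 of 1150, relative density 0.884), microRNA genes (20 of 1793, 1.03) and ribosomal protein genes (1 of 93, RPSA, 0.779) were near the average.

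The kinds differed in which libraries were dense in them. In the 17 zinc finger bins relative density was 4.06 for shARID1A TRIM28, 2.41 for shARID1A SETDB1, 0.656 for shCtrl H3K9me3, 1.80 for shCtrl TRIM28, 8.42 for unmodified H3K9me3 and 3.16 for unmodified TRIM28. In the 9 array bins it was 6.84 for shARID1A SETDB1, 3.40 for shCtrl SETDB1, 0.770 for shCtrl H3K9me3 and 0.698 for shCtrl TRIM28. In the 49 bins without genes it was 2.78 for shARID1A TRIM28 and 3.23 for shARID1A SETDB1, 0.965 for shCtrl H3K9me3 and 0.826 for shCtrl SETDB1, and 4.31 and 3.99 for unmodified H3K9me3 and TRIM28. The shCtrl H3K9me3 library was thus below the average bin in all 3 of these kinds, and above it in members with other protein-coding genes (1.46) or only noncoding genes (1.95). Low values were not particular to members. Over all occupied zinc finger, array and gene-free bins, members or not, shCtrl H3K9me3 had 0.675, 0.710 and 0.628. Over all array bins shCtrl SETDB1 had 3.79. Against IgG, shCtrl H3K9me3 in members had 1.08 in zinc finger bins, 1.44 in array bins and 0.819 in bins without genes. Against IgG shARID1A TRIM28 had 2.58, 2.99 and 1.23 in these kinds, and shARID1A SETDB1 had 1.14, 2.55 and 0.787, so SETDB1 in bins without genes turned to below the average bin.

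**Figure D4:**
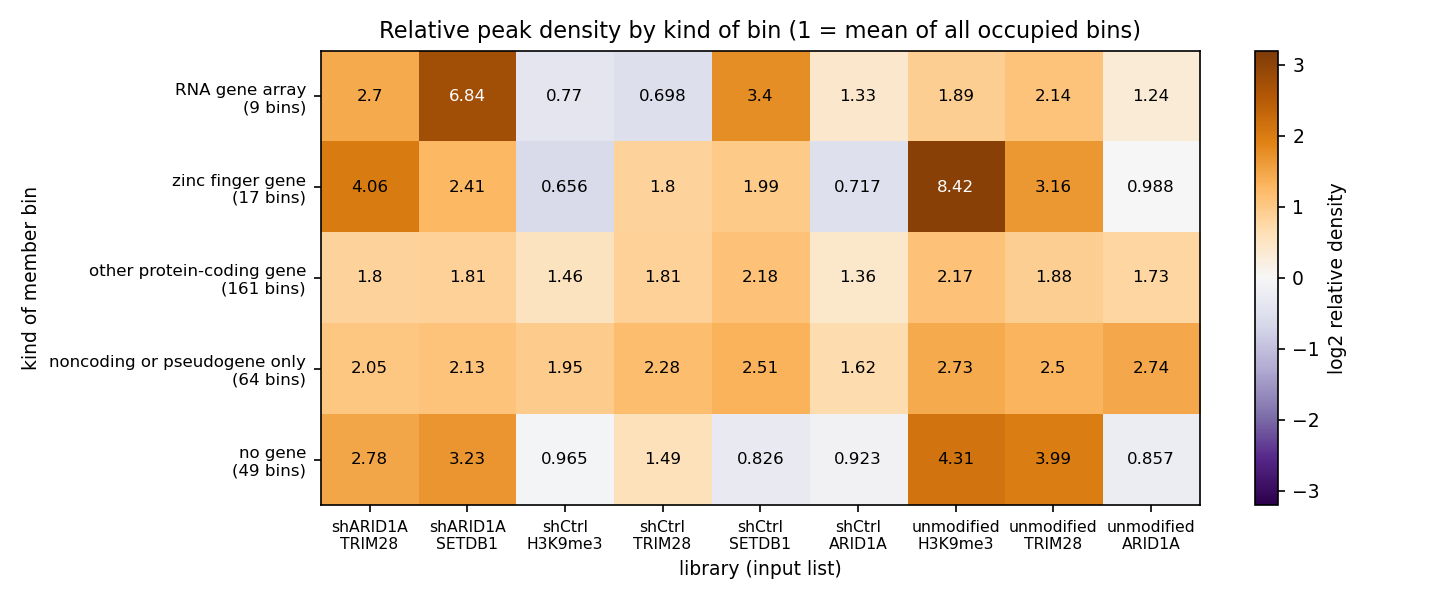
Relative peak density of 9 libraries against input (columns) in 5 kinds of member bin (rows, with the number of bins); each cell prints the value, with 1 the mean of all occupied bins, and the colour is its log2. Unmodified H3K9me3 in zinc finger bins (8.42) is the highest and shCtrl H3K9me3 in the same bins (0.656) the lowest.

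In all, 5 bins with dense shARID1A peaks were empty in every input list of the other cells. They hold 36, 15, 15, 9 and 9 shARID1A H3K9me3 peaks and lie on chromosome 1 from 143200001, chromosome 10 from 42000001, chromosome 16 from 34500001, chromosome 1 from 125100001 and chromosome 16 from 46300001. All 5 flank a centromere or the heterochromatin block beside it, and LOC101929814, in the first, is the only gene of the gene table in them. The same bins held 44, 26, 17, 21 and 10 shARID1A TRIM28 peaks and 17, 9, 8, 7 and 7 shARID1A SETDB1 peaks. Emptiness in those 7 input lists is common, at 10.2% of occupied bins. With the IgG lists added, 0 of the 5 were empty (0.450% of occupied bins are empty in all 14 lists): shCtrl TRIM28 had 29, 11, 12, 15 and 9 peaks there, and unmodified H3K9me3 13, 15, 7, 5 and 1. The choosing library had only 2, 1, 0, 4 and 1 peaks there against IgG. The density of these 5 bins in shARID1A H3K9me3 was therefore present against input and nearly absent against IgG.

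The 13 bins of the chromosome 6 run behaved otherwise. Together they held 257 shARID1A H3K9me3 peaks against input and 195 against IgG. TRIM28 had 404 peaks there in shARID1A, 25 in shCtrl and 103 in unmodified cells against input, and 159, 211 and 258 against IgG. H3K9me3 had 7 peaks in shCtrl and 47 in unmodified cells against input, and 87 and 134 against IgG. The shCtrl cells thus had the lowest counts of both H3K9me3 and TRIM28 against input, but against IgG they had more TRIM28 peaks than shARID1A cells. SETDB1 had 71 peaks in shARID1A and 13 in shCtrl cells against input, and 54 and 42 against IgG.

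The 5S ribosomal RNA genes lie in the fifth-ranked bin, on chromosome 1 from 228600001 to 228700000, together with RHOU. That bin held 25 H3K9me3, 36 TRIM28 and 29 SETDB1 peaks in shARID1A cells, 2, 1 and 2 in shCtrl cells with 4 of ARID1A, and in unmodified cells 0 of H3K9me3, 1 of TRIM28 and 0 of ARID1A. All 17 annotated 5S genes had at least 1 peak within 1000 bp in each of the 3 shARID1A input lists, where 28.3% of genes of any kind had an H3K9me3, 49.7% a TRIM28 and 24.4% a SETDB1 peak. The H3K9me3 share follows in part from the choice of the bin. The 17 copies lie so close that their margins of 1000 bp nearly meet, so they are not 17 separate sites. None of the 17 had a peak in the 7 input lists of the other cells. Against IgG all 17 had a shCtrl ARID1A peak, against 60.1% of all genes, 11 a shCtrl SETDB1 peak, against 44.3%, and 12 an unmodified H3K9me3 peak, against 15.2%, so the absence in other cells held for the input lists only. The bin of a 45S ribosomal RNA gene, RNA45SN1, on chromosome 21 from 8400001, held 15, 27 and 16 peaks of shARID1A H3K9me3, TRIM28 and SETDB1, and at most 5 of any other library, all against input. Against IgG those 3 libraries had 31, 40 and 19 peaks, shCtrl TRIM28 had 19 and ARID1A 15, and unmodified H3K9me3 had 29 and TRIM28 13. It also holds MIR10396B, a microRNA gene of the ribosomal RNA transcript, with 1, 2 and 4 of those peaks at its body.

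Transfer RNA and small nuclear RNA genes showed another pattern. In the bin on chromosome 1 from 161400001, 23 of 26 tRNA genes had a shARID1A TRIM28 peak, 23 a shARID1A SETDB1 peak and 20 an H3K9me3 peak of these cells. Of all genes, 49.7%, 24.4% and 28.3% had one, and the H3K9me3 count follows in part from the choice of the bin. Many of the 26 lie within 1000 bp of the next, so they are not separate sites. In shCtrl cells 23 of the 26 had an ARID1A peak, where 32.9% of all genes had one, but 1 had an H3K9me3 peak, 0 a TRIM28 peak and 2 a SETDB1 peak. The shares of all genes with such a peak were 30.2%, 26.2% and 35.6%. Against IgG 8 of the 26 had a shCtrl H3K9me3, 2 a TRIM28 and 5 a SETDB1 peak. Of tRNA genes outside the members, 40.2%, 21.3% and 78.7% had one against IgG. The third-ranked bin, on chromosome 17 from 43200001, holds an array of U2 small nuclear RNA genes beside NBR1, a receptor of selective autophagy, and CCDC200. It had 31, 29 and 13 peaks of shARID1A H3K9me3, TRIM28 and SETDB1, and in shCtrl cells 1, 1 and 21 with 3 of ARID1A; unmodified TRIM28 had 13. Against IgG the counts were 50, 54 and 41 in shARID1A cells, and 26, 17 and 28 with 29 of ARID1A in shCtrl cells. All 14 U2 genes touching members had a shCtrl SETDB1 peak, against 35.6% of all genes and 43.8% of snRNA genes elsewhere. A shARID1A SETDB1 peak was at 11, against 24.4% and 10.2%. Against IgG all 14 had a peak of each of these libraries. The 14 are copies in an array and not independent sites. Over all members, 36 of 68 tRNA genes had a shCtrl SETDB1 peak, fewer in proportion than the 276 of 371 tRNA genes elsewhere, and 27 had a shARID1A SETDB1 peak, against 13 of 371 elsewhere. The 26 genes of the bin from 161400001 gave 2 of those 36 and 23 of those 27. Without this bin, the shCtrl SETDB1 share in members was not lower than elsewhere, and most of the shARID1A SETDB1 excess was gone. Against IgG 41 of the 68 had a shCtrl SETDB1 peak (60.3%), against 78.7% elsewhere, and 5 of these 41 were in that bin. A shARID1A SETDB1 peak against IgG was at 53 (77.9%), against 62.5% elsewhere, and 25 of these 53 were in that bin.

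Of the 26 zinc finger genes in the bins, 25 had a shARID1A TRIM28 peak (96.2%), against 85.6% of the 527 zinc finger genes elsewhere and 73.7% of protein-coding genes. Unmodified H3K9me3 had a peak at 17 (65.4%), against 17.8% elsewhere and 14.2% of protein-coding genes, and unmodified TRIM28 at 16 (61.5%), against 29.2% and 29.6%. shCtrl H3K9me3 was found at 9 (34.6%), against 30.6% and 48.2%, shCtrl TRIM28 at 14 (53.8%), against 38.1% and 41.8%, and shCtrl SETDB1 at 22 (84.6%), against 60.7% and 59.9%. These counts are against input. Against IgG, shCtrl H3K9me3, TRIM28 and SETDB1 each had a peak at 25 (96.2%), against 73.4%, 83.5% and 74.8% of zinc finger genes elsewhere. shARID1A TRIM28 was then at all 26, against 89.2%. Unmodified H3K9me3 was at 17 (65.4%), against 36.6%, and unmodified TRIM28 at 19 (73.1%), against 58.6%. The choosing library had a peak at 24 against input. The gene with the most choosing peaks was ZNF678, on chromosome 1 from 227563556 to 227679669, with 14 H3K9me3, 51 TRIM28 and 7 SETDB1 peaks in shARID1A cells. ZNF678 spans 116114 bp and is the longest of the 26, which gives it more room for peaks. It had 2 H3K9me3, 11 TRIM28, 4 SETDB1 and 7 ARID1A peaks in shCtrl cells, and 7, 8 and 0 of H3K9me3, TRIM28 and ARID1A in unmodified cells. ZNF124 had 12, 25 and 1 peaks of shARID1A H3K9me3, TRIM28 and SETDB1, and ZNF695 10, 15 and 2. Their shCtrl H3K9me3 counts were 3 and 0, and their unmodified ones 6 and 4.

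The bins of ZNF124 with ZNF669 and of ZNF16 with ZNF250 had 47 shARID1A TRIM28 peaks each, the most of all members. Their shCtrl TRIM28 counts were 8 and 13, and their unmodified ones 9 and 4. Not every zinc finger bin was filled in the other cells. The bin of ZNF565 and ZNF146 on chromosome 19 held 12, 44 and 5 peaks of shARID1A H3K9me3, TRIM28 and SETDB1, and 0 of shCtrl or unmodified H3K9me3 and TRIM28. That of ZNF738 and ZNF708 held 9, 15 and 0, and in the other 7 lists only 1 peak, of shCtrl SETDB1. Both bins were picked for this contrast after their values were seen. Against IgG the first held 3 shCtrl H3K9me3, 9 shCtrl TRIM28, 15 unmodified H3K9me3 and 11 unmodified TRIM28 peaks, while the second held 7 shCtrl H3K9me3 and 8 shCtrl TRIM28 peaks and none of the unmodified cells.

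Other gene families were fewer. USP17L genes encode deubiquitinating enzymes and lie in a tandem array on chromosome 4, where 2 members, from 9200001 to 9400000, hold 19 of them. At these genes 8 had an H3K9me3, 8 a TRIM28 and 5 a SETDB1 peak in shARID1A cells, while 4, 5 and 0 had one in shCtrl cells. Of all genes, 30.2%, 26.2% and 35.6% had such a shCtrl peak, so the shCtrl TRIM28 share of 26.3% was at its background. The shARID1A H3K9me3 share of 42.1%, against 28.3% of all genes, follows in part from the choice of the bins. The shARID1A TRIM28 share of 42.1% was below the 49.7% of all genes and the SETDB1 share of 26.3% near the 24.4%. Against IgG 0 of the 19 had a shARID1A TRIM28 peak, against 59.5% of all genes, and 8 a shCtrl TRIM28 peak, against 55.0%. Both bins entered through the tie at 8 peaks. Among olfactory receptor genes, which encode odorant receptors, OR1J2 had 6, 12 and 2 peaks of shARID1A H3K9me3, TRIM28 and SETDB1 and OR1F1 3, 5 and 1. OR1J2 spans 132995 bp, which gives it more room for peaks than a typical receptor gene.

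A group of members was dense in several other libraries. The bin of MIR5702, on chromosome 2 from 226600001, held 11, 17 and 2 peaks of shARID1A H3K9me3, TRIM28 and SETDB1. In shCtrl cells it held 28 H3K9me3, 19 TRIM28, 48 SETDB1 and 26 ARID1A peaks, and in unmodified cells 10 H3K9me3, 26 TRIM28 and 23 ARID1A peaks. Over all members it had the highest count, alone or shared, in 5 of the other 9 libraries. The bin of RNU6ATAC19P, also on chromosome 2, from 181700001, had 8, 14 and 1 in shARID1A cells, and 20, 7, 43 and 20 of H3K9me3, TRIM28, SETDB1 and ARID1A in shCtrl cells. Those of DCBLD2, a membrane receptor gene on chromosome 3, of SLC38A4-AS1, an antisense RNA gene on chromosome 12, and of SOCS6, a suppressor of cytokine signalling on chromosome 18, had 33, 33 and 30 shCtrl SETDB1 peaks. Their shARID1A H3K9me3 counts were only 8, 10 and 9. Some libraries were sparse there: the SLC38A4-AS1 bin held 0 unmodified H3K9me3 peaks and the SOCS6 bin 1 unmodified TRIM28 peak. In these bins several antibodies in several cell states had high counts together, and the part of copy number or mappability in that was not tested.

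Of the 10 tallest choosing peaks in the bins, 6 lay at a protein-coding gene and 4 at no annotated gene. PKIB, an inhibitor of protein kinase A, had the highest, with a fold enrichment of 19.0 at 122504859 to 122505616 on chromosome 6, overlapped by shARID1A TRIM28 and SETDB1 and by shCtrl H3K9me3 and SETDB1 peaks. Next were peaks in FGD5 (17.3), SRGAP2 (16.6), DYDC2 (15.2), SMAD1 (14.2) and XRRA1 (13.9). All 10 of the tallest were overlapped by a shCtrl SETDB1 peak, where 28.1% of choosing peaks were, and 2 by a shCtrl H3K9me3 peak, where 5.93% were. None of these 10 lay in a zinc finger or array bin except 1, in the tRNA array on chromosome 7 from 149500001.

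Promoters in the bins carried peaks of the shARID1A libraries, and also of shCtrl TRIM28, more often than promoters elsewhere. A shARID1A TRIM28 peak lay at 53 of 352 (15.1%, 11.5% to 19.2%), against 10.7% elsewhere and 10.8% of all promoters, and a SETDB1 peak at 39 (11.1%), against 7.49% and 7.52%. Against IgG the TRIM28 shares were 28.1% and 26.6% and the SETDB1 shares 34.1% and 31.2%, so both differences were small. In shCtrl cells H3K9me3 was at 12 (3.41%), against 2.54% and 2.55%, TRIM28 at 9 (2.56%), against 0.818% and 0.836%, SETDB1 at 43 (12.2%), against 13.3% and 13.3%, and ARID1A at 28 (7.95%), against 7.95%. Against IgG shCtrl TRIM28 was at 7.95%, against 3.65% elsewhere, and shCtrl H3K9me3 at 10.8%, against 7.75%. For shCtrl SETDB1 these shares were 22.4% and 19.0%, and for shCtrl ARID1A 30.1% and 28.4%. Against input, unmodified H3K9me3 was at 0 of 352, which allows up to 1.04%, against 0.196% of all promoters. The choosing library had a peak at 64 (18.2%), against 5.85% of all promoters, as the choice of bins favours. Those 64 promoters had a median of 17.5 CpG in their 250 bases, against 8 in the other members and 11 overall. Neighbouring promoters can share bases, as those of NEK2 and NEK2-DT do, so these counts are not of separate sites. NEK2, EIF5A2, ZNF670, CYREN and UBE2F-SCLY were named for having peaks of all 3 shARID1A libraries, after that was seen.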

How the data were processed

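The 20 deposited peak lists cover 10 ChIP-seq libraries, called by the authors once against input and once against IgG; only the name of a list gives its control. The submitters' processing notes name MACS2 2.2.7.1, Bowtie2 2.2.5, deepTools 3.5.1, FastQC 0.11.9 and ChIPseeker, and the builds hg38 and GRCh38; no options are given in the sources used. Fold enrichment, a ratio of summit pileup to local background, and −log10 p and −log10 q are the authors' deposited values per peak, called per library. Peaks on chromosomes 1 to 22 were kept. Depth is unknown.

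Bins of 100000 bp start at position 0; ties were broken by chromosome, then start. Strong peaks have a q of at most 0.05. Genes were placed with RefSeq positions (GRCh38.p14), without strand; a gene touched a bin by at least 1 bp and had a peak within 1000 bp of its body. Promoter sequences came from RefSeq (GRCh38.p14). No genome or repeat annotation was used here. Counts per bin and gene, overlaps of at least 1 bp and intervals were computed with Python 3.11.15, pandas 2.3.3, NumPy 2.4.6 and SciPy 1.17.1, and figures drawn with matplotlib 3.10.9. Binning and overlap code was tested on simulated peaks.

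Genes were named by rule: protein-coding genes of the 20 densest bins (up to 2 a bin), up to 3 members per family with the most choosing peaks, genes of the 3 member bins leading each other library, genes of the 5 bins on either side of the limit, and genes at up to 10 of the tallest choosing peaks. Names outside it are marked as such. The bins and lists were chosen with earlier results of these data known. With 1 library per group no test between cell states was made. Alternatives were lists against IgG, strong peaks, any overlap with the bin, merging within 1000 bp, a shifted grid, bins chosen from the IgG list, larger bins, the densest bins left out, gene midpoints and, added after seeing the data, bins above the tie.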

Additional observations from a re-analysis of the deposited data

Results flagged for a closer look

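Outside chromosomes 1 to 22, which the rule did not use, 9 bins of 100000 bp held at least 8 shARID1A H3K9me3 peaks against input, the lowest count in the 300 bins. They were found in data outside the comparisons above. Of these bins, 7 lie on unplaced or unlocalized sequences. One of them, on an unlocalized sequence assigned to chromosome 22, held 15, 19 and 21 peaks of shARID1A H3K9me3, TRIM28 and SETDB1, and in shCtrl cells 3, 1 and 2, with 19 of ARID1A.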

How the results depend on the processing

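Of 107 values recomputed under alternatives, 42 kept their direction and stayed within the counting interval, 59 moved and 6 turned; unless said otherwise the cause was not tested. The densities above 1 stayed above 1 except where named, and the log2 ratio of SETDB1 density between cell states had no stable sign. Relative densities are given in the order shARID1A TRIM28, shARID1A SETDB1, shCtrl H3K9me3, shCtrl TRIM28, shCtrl SETDB1, shCtrl ARID1A, unmodified H3K9me3, unmodified TRIM28 and unmodified ARID1A, leaving out those that did not move. Against IgG they were 1.59, 1.18, 1.19, 1.42, 1.92, 1.22, then unmodified TRIM28 2.07 and ARID1A 1.60. Among strong peaks they were 12.9, 9.29, 1.33, 11.0, 2.31, 10.9, 18.4, 16.5 and 1.32, on as few as 3 peaks in shCtrl TRIM28 and unmodified H3K9me3, and on 1 bin in shCtrl ARID1A. In bins chosen from the IgG list, of which 34 are shared, they were 1.28, 1.83, 1.66, 0.882 (turned), 4.06, 1.44, 1.71, 1.66 and 5.47. With peaks merged, shARID1A TRIM28 had 1.80 and SETDB1 2.12. With the grid moved by 50 kb, shCtrl H3K9me3 had 1.50, shCtrl SETDB1 2.26 and unmodified ARID1A 2.07. In 150 bins of 200 kb, shARID1A TRIM28 had 1.96, shCtrl H3K9me3 1.59, SETDB1 2.19 and ARID1A 1.47, and unmodified cells 3.34, 2.78 and 2.37. Without the 30 densest bins, shARID1A TRIM28 had 1.97, SETDB1 1.91, shCtrl H3K9me3 1.50, unmodified H3K9me3 2.56 and TRIM28 2.19. In the 223 bins above the tie, shARID1A TRIM28 had 2.30, SETDB1 2.51, shCtrl ARID1A 1.23, unmodified H3K9me3 3.37 and TRIM28 2.62. Counting any overlap with the bin moved none.

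Protein-coding gene density turned to 0.947 with the grid moved and 0.990 in 200 kb bins, and was 2.67 in bins chosen from the IgG list. Zinc finger gene density was 2.28 in bins chosen from the IgG list and 5.02 in 200 kb bins. The log2 ratio of TRIM28 density, shARID1A over shCtrl, was 0.16 against IgG, 0.03 with peaks merged, 0.54 in bins chosen from the IgG list, 0.12 in 200 kb bins, 0.06 without the 30 densest bins and 0.34 above the tie. That of SETDB1 turned to -0.70 against IgG, -1.15 in bins chosen from the IgG list and -0.16 without the 30 densest bins, and was 2.01 among strong peaks, 0.03 in 200 kb bins and 0.28 above the tie. No paired analysis was possible because each group has 1 library and no result comes from a test; leaving out replicates was not possible for the same reason. Peaks down to an unadjusted p of about 0.05 are counted, so many single peaks may not recur.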
